A study of Homo sapiens with 6 samples.

Results

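The 10 genes studied here are known as targets of FOXO transcription factors in growth arrest and in tissue atrophy, and they were followed in PRO-seq data from T47D cells: HBP1, KLHL24, CCNG2, BTG1, FBXO32, CITED2, BCL6, PIK3IP1, RBL2 and FOXO3. They were taken by name from a table of raw counts for 20333 gene intervals, and a gene was to be dropped if it stayed under 10 counts in every library. All 10 were present and none came near that minimum: the lowest, PIK3IP1, had 238 to 461 counts per library, and the highest, BCL6, had 4632 to 8148. The 10 names were chosen with the fold changes of these same contrasts known, so they count as selected on them. The adjusted p-values below therefore place each gene within a fit of all genes and are not independent evidence that such genes respond.

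T47D is an established luminal breast cancer line, positive for the estrogen receptor and negative for HER2. The cells were kept in medium complete with growth factors and treated for 5 h with DMSO (the solvent), with 500 nM GDC0068, or with 100 nM INY-05-040, called Degrader here. GDC0068 blocks the catalytic activity of the AKT kinases, and INY-05-040 leads to the destruction of the AKT proteins. The doses differ because they were picked to lower signalling downstream of AKT to a like degree. Each of the 3 arms had 2 libraries. The series describes 2 independent experiments, and the replicate numbers were taken to mark them, which the labels do not state. All cells were of the same line with no genetic change. In PRO-seq, polymerases engaged on the DNA are allowed to run on in permeabilised cells, so the reads in a gene follow ongoing transcription and not the stock of mature RNA.

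AKT is switched on by growth factors through PI3K. It phosphorylates FOXO proteins, which are then held in the cytoplasm; when AKT activity falls, FOXO proteins enter the nucleus and bind DNA at forkhead elements. The genes they are known to raise include brakes on the cell cycle, ubiquitin ligase subunits first studied in wasting muscle, and parts of the insulin and PI3K pathway itself, which form feedback loops.

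The libraries held 25371819 to 32192576 counts. All 8 luminal markers examined were transcribed, from SPDEF to GATA3 with means of 240 to 1370 CPM (counts scaled to a common library size). Of 12 markers of basal, fibroblast, endothelial and blood cells, 2 were matched by name, ACTA2 and CD14, and the summed level of these 2 was 3.49 to 6.04 CPM per library. ACTA2, a smooth muscle and myofibroblast actin, lay higher under Degrader but was not called without the replicate number as a block in the fit. It gave 3.11 and 4.12 CPM in DMSO, 3.70 and 4.27 CPM with GDC0068, and 4.63 and 5.63 CPM with Degrader. Its log2 value against DMSO was 0.51 (edgeR adjusted p = 0.0819, and 0.0129 with the block). CD14 stood at 0.37 and 0.37 CPM in DMSO, 0.47 and 0.56 CPM with GDC0068, and 0.35 and 0.41 CPM with Degrader. CD14 was not called under Degrader with or without the block (log2 0.036, edgeR adjusted p = 0.967 without it). The part of ACTA2 in the results was not tested. Under Degrader none of the 8 luminal markers passed an edgeR adjusted p of 0.05 without the block. With the block XBP1 was higher (0.17, edgeR adjusted p = 0.000983), as was FOXA1 (0.16, edgeR adjusted p = 0.00124). ESR1 was lower with the block (-0.13, edgeR adjusted p = 0.00921). In a bulk culture, more transcription in every cell cannot be told apart from a strong rise in some of the cells.

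Transcription of all 10 genes was higher under Degrader than in DMSO, by 1.19-fold for FOXO3 up to 2.37-fold for HBP1. Under GDC0068 the same 10 genes lay above DMSO, from 1.07-fold for FOXO3 to 1.56-fold for HBP1. In each comparison with DMSO, both drug libraries stood above both DMSO libraries for all 10 genes, an arrangement that 29.3% of all genes tested showed under Degrader and 26.1% under GDC0068. At an edgeR adjusted p under 0.05 over 19902 genes, 10 of 10 rose under Degrader, where 7.39% of all genes were called higher, and 6 of 10 rose under GDC0068, where 1.7% were. The 6 became 1 without DMSO replicate 1 and 3 without GDC0068 replicate 2. With the replicate number as a block in the fit, the 2 counts were 10 and 8, beside 15.1% and 8.87% of all genes called higher. Nothing is read from these shares, since the genes were named with the contrasts known. Both contrasts use the same DMSO libraries. The median log2 fold change of the 10 genes was 0.59 under Degrader and 0.37 under GDC0068, beside -0.0014 and 0.0099 over all genes. The plot of CPM by library shows every value.

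**Figure D1:**
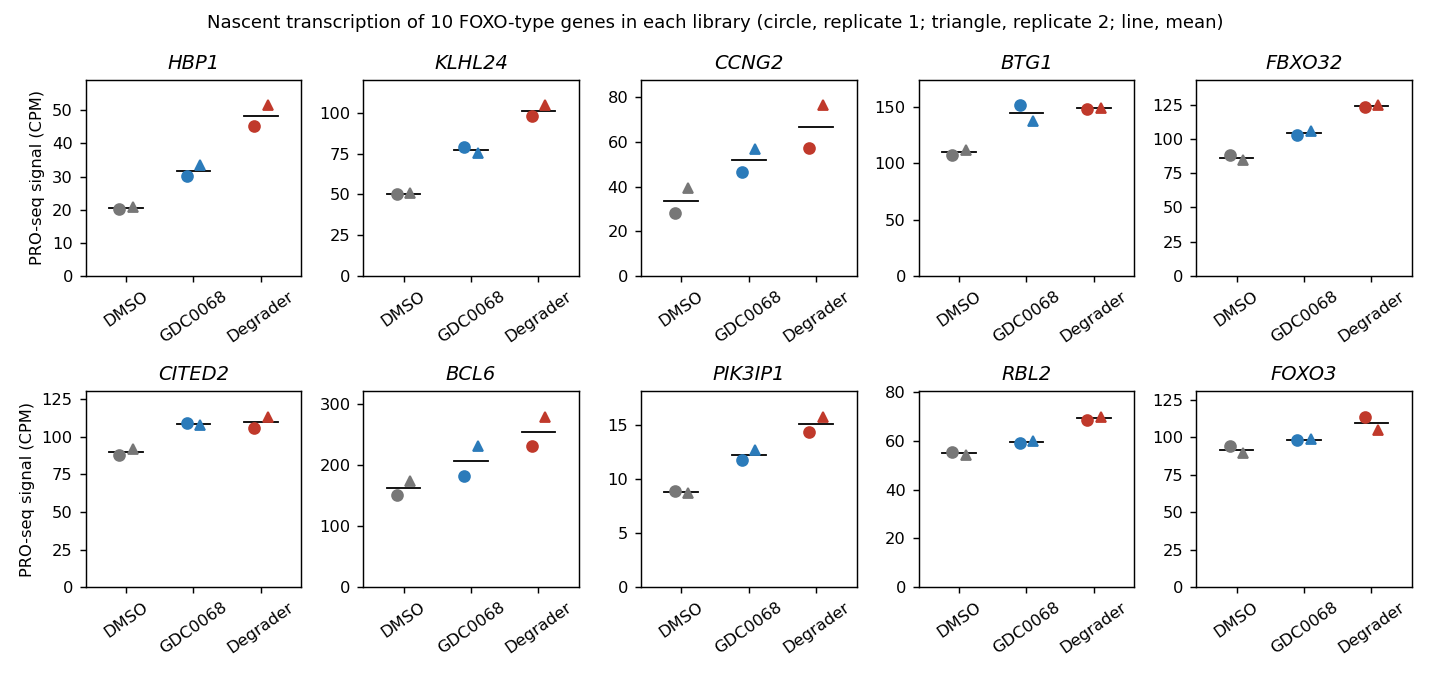
PRO-seq signal in CPM, counts scaled to a common library size (y axis, from 0, one scale per gene) of the 10 genes in DMSO, GDC0068 and Degrader; circles are replicate 1, triangles are replicate 2 and lines are means of the 2 libraries. The 2 DMSO libraries are the lowest in every panel, and HBP1 climbs from 20.0 and 20.8 CPM in DMSO to 45.4 and 51.5 CPM with Degrader.

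HBP1, an HMG-box repressor that slows entry into S phase, had the largest change of the 10. It lies on chromosome 7 (ENSG00000105856, 107169030 to 107202508, plus strand; coordinates are those of the table, and the submitters' processing notes name hg38 and GRCh38). It gave 20.0 and 20.8 CPM in DMSO, 30.2 and 33.4 CPM with GDC0068, and 45.4 and 51.5 CPM with Degrader. The 3 arms lay in that order and did not overlap. Its log2 fold change was 1.25 under Degrader (SE 0.0844, edgeR adjusted p = 2.66e-05), which ranked 17 among the 19902 genes, and 0.64 under GDC0068 (SE 0.0863, edgeR adjusted p = 0.00561), which ranked 180. The GDC0068 call was lost without DMSO replicate 1 (edgeR adjusted p = 0.0631, the highest of 14 alternatives, which began at 1.76e-07). The HBP1 promoter is shown because it carries the core letters of the forkhead element that FOXO proteins bind, GTAAACA, beginning 173 bases before the RefSeq start site. The stretch runs from 250 to 101 bases before that site (chr7:107168753-107168902, GRCh38.p14, plus strand), with the match in capitals.
HBP1: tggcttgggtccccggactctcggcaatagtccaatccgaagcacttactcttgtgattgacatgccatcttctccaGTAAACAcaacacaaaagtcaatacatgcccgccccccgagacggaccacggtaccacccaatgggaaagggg

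CCNG2 and RBL2 are also brakes on division. CCNG2 encodes cyclin G2, an unusual cyclin linked to arrest (ENSG00000138764, chromosome 4, 77157246 to 77166184, plus strand). It gave 28.0 and 39.3 CPM in DMSO, 46.65 and 56.9 CPM with GDC0068, and 57.1 and 76.4 CPM with Degrader. Replicate 2 was the higher library in every arm, so the gaps between the arms were small although the drug libraries exceeded the DMSO library of their own number: within replicates 1 and 2 the log2 change was 1.03 and 0.96 under Degrader and 0.73 and 0.53 under GDC0068. The fitted change was 0.99 under Degrader (SE 0.156, edgeR adjusted p = 0.00199), lost with robust estimation (edgeR adjusted p = 0.106, the highest of 14 alternatives, the lowest being 2.18e-13). Under GDC0068 it was 0.63 (SE 0.158), which missed the threshold (edgeR adjusted p = 0.0514) and passed it with the replicate number as a block (edgeR adjusted p = 1.31e-08). Without DMSO replicate 2 the GDC0068 value was 0.89 and called (edgeR adjusted p = 0.0374), and it was also called with upper-quartile factors, in the fit of the 4 libraries compared and without either Degrader library. Over the 14 alternatives the adjusted p went up to 0.33.

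RBL2 encodes p130, a relative of the retinoblastoma protein that holds E2F target genes silent in resting cells (ENSG00000103479, chromosome 16, 53434439 to 53491648, plus strand). It stood at 55.65 and 54.25 CPM in DMSO, 59.3 and 60.0 CPM with GDC0068, and 68.8 and 70.0 CPM with Degrader. The libraries of an arm lay close together, and the 3 arms were apart. It rose under Degrader by 0.34 on the log2 scale (SE 0.0521, edgeR adjusted p = 0.00188). Its value of 0.12 under GDC0068 was not called (SE 0.0526, edgeR adjusted p = 0.237), nor with the block (edgeR adjusted p = 0.0831).

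BTG1, an antiproliferative protein that brings the CCR4-NOT deadenylase to RNA, is a short interval on chromosome 12 (ENSG00000133639, 92140278 to 92145848, minus strand). It showed 107 and 112 CPM in DMSO, 152 and 138 CPM with GDC0068, and 149 and 149.8 CPM with Degrader. The drug arms overlapped each other, and both lay above DMSO. Its log2 change was 0.44 under Degrader (SE 0.0558, edgeR adjusted p = 0.000627), compared with 0.40 under GDC0068 (SE 0.0559, edgeR adjusted p = 0.00702). The latter was lost without DMSO replicate 1, where it was 0.36 (edgeR adjusted p = 0.0688, the highest of 14 alternatives, with 8.79e-08 the lowest). The BTG1 promoter carries the forkhead letters on the opposite strand, TGTTTAC on the strand of the gene, from 209 bases before the RefSeq start. With the base before it, this match also forms the 8-letter element GTAAACAA on the opposite strand. The stretch shown runs from 250 to 101 bases before the start (chr12:92145947-92146096, GRCh38.p14, minus strand), with the 7 letters in capitals.
BTG1: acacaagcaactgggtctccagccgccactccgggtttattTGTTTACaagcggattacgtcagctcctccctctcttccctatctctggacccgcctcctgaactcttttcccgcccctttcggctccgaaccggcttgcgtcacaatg

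PIK3IP1 encodes a membrane protein that inhibits the catalytic subunit of PI3K, upstream of AKT (ENSG00000100100, chromosome 22, 31281600 to 31292456, minus strand). It was the member with the fewest counts and gave 8.96 and 8.75 CPM in DMSO, 11.8 and 12.7 CPM with GDC0068, and 14.4 and 15.8 CPM with Degrader. The 3 arms did not overlap. Its log2 change was 0.77 under Degrader (SE 0.105, edgeR adjusted p = 0.000931), compared with 0.47 under GDC0068 (SE 0.107, edgeR adjusted p = 0.0376). The GDC0068 call was lost with several libraries left out: without DMSO replicate 1 or 2, GDC0068 replicate 1 or 2, or Degrader replicate 2 the edgeR adjusted p-values were 0.177, 0.157, 0.0727, 0.16 and 0.0539. It was also lost in the fit of the 4 libraries compared (edgeR adjusted p = 0.0575), and the lowest value, 0.00195, came with the block. Near the start of PIK3IP1, 17 bases after the RefSeq start site, stand the letters TGTTTAC, the forkhead letters on the opposite strand; 30 bases around them are shown (chr22:31292454-31292483, GRCh38.p14, minus strand), with the match in capitals.
PIK3IP1: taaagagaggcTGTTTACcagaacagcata

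RefSeq promoter windows, from 250 bases before to 50 after a start site, were matched for 9 of the 10 genes, taking the start nearest to that of the table. Searched on both strands, GTAAACA was found in 3 of the 9 (HBP1, BTG1 and PIK3IP1) and in 252 of the 11117 windows of tested genes (2.27%). GTAAACAA, which contains GTAAACA, was in 1 of the 9 and in 0.63% of all windows. The related letters CAAAACAA were in 0 of the 9 and in 0.953% of all windows. KLHL24 and CCNG2, whose changes were next in size to that of HBP1, had no match to these letters in the window. The nearest RefSeq start of BCL6 lay 616 bases before that of the table, and the others within 43 bases. The median GC content was 59% in the windows of the 9 and 66% in all windows. It was 54.7% for HBP1, 56% for BTG1 and 49.7% for PIK3IP1, and 53% for BCL6, which had no match. The part of GC content in the shares was not tested. A match describes the letters and does not show that FOXO binds there.

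Of the 10 genes, 2 encode substrate receptors of ubiquitin ligases. KLHL24, a Kelch-like adaptor of cullin 3 ligases, lies on chromosome 3 (ENSG00000114796, 183635623 to 183684477, plus strand). Its levels were 49.95 and 51.0 CPM in DMSO, 79.3 and 75.2 CPM with GDC0068, and 97.8 and 105 CPM with Degrader, with the 3 arms well apart. The log2 change was 1.00 under Degrader (SE 0.0565, edgeR adjusted p = 1.67e-05), compared with 0.61 under GDC0068 (SE 0.057, edgeR adjusted p = 0.000707). Both were called under all 14 alternatives.

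FBXO32 encodes atrogin-1, the F-box protein that marks proteins for breakdown in wasting muscle (ENSG00000156804, chromosome 8, 123503127 to 123541206, minus strand). In these breast cancer cells it was transcribed at 88.3 and 84.5 CPM in DMSO, 103 and 106 CPM with GDC0068, and 124 and 125 CPM with Degrader. The arms lay in that order without overlap. The change under Degrader, 0.52 (SE 0.0487, edgeR adjusted p = 0.000138), was called under all 14 alternatives. Under GDC0068 it was 0.28 (SE 0.049, edgeR adjusted p = 0.0144). That call was lost without DMSO replicate 1, DMSO replicate 2 or GDC0068 replicate 2, with edgeR adjusted p-values of 0.0747, 0.103 and 0.0926 and a lowest value of 1.04e-05 among the alternatives.

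BCL6 and CITED2 act on transcription. BCL6 is a zinc finger repressor best known from germinal centre B cells (ENSG00000113916, chromosome 3, 187721381 to 187744852, minus strand). It showed 150.4 and 174 CPM in DMSO, 182 and 231 CPM with GDC0068, and 231 and 279.6 CPM with Degrader. Replicate 2 was again the higher library in each arm, and the drug arms met at 231 CPM, with the lower Degrader library just under the higher GDC0068 library. The change under Degrader was 0.65 (SE 0.112, edgeR adjusted p = 0.00316) and was lost with robust estimation (edgeR adjusted p = 0.0923, the highest of 14 alternatives, with 3.08e-13 the lowest). Under GDC0068 the value of 0.35 was not called (SE 0.112, edgeR adjusted p = 0.11), but it was with the block (edgeR adjusted p = 1.76e-07), and within replicates 1 and 2 it was 0.28 and 0.41.

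CITED2 binds the coactivators CBP and p300 and limits hypoxia-inducible factor (ENSG00000164442, chromosome 6, 139371807 to 139374648, minus strand). Its levels were 87.5 and 91.6 CPM in DMSO, 109 and 108 CPM with GDC0068, and 106 and 113 CPM with Degrader. The GDC0068 libraries lay between the 2 Degrader libraries, and all 4 were above DMSO. It rose by 0.29 under Degrader (SE 0.0527, edgeR adjusted p = 0.00433) and by 0.27 under GDC0068 (SE 0.0528, edgeR adjusted p = 0.0207). The Degrader call was lost without DMSO replicate 1 or Degrader replicate 2 (edgeR adjusted p of 0.0586 and 0.0703; lowest of the alternatives 1.55e-06). The GDC0068 call was lost without any 1 of the 4 libraries compared, with edgeR adjusted p-values from 0.0712 to 0.173 and 1.41e-05 with the block.

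FOXO3 encodes one of the FOXO factors themselves and is the longest of the 10 intervals (ENSG00000118689, chromosome 6, 108560960 to 108684774, plus strand). It had the smallest change: 94.05 and 89.3 CPM in DMSO, 97.9 and 98.7 CPM with GDC0068, and 114 and 105 CPM with Degrader. The arms did not overlap, but the gap between DMSO and GDC0068 was smaller than the distance between the 2 DMSO libraries, and the gap between GDC0068 and Degrader smaller than that between the 2 Degrader libraries. The log2 change was 0.25 under Degrader (SE 0.0546, edgeR adjusted p = 0.0103), lost without DMSO replicate 2 or Degrader replicate 1 (0.22 and 0.19, edgeR adjusted p of 0.0736 and 0.0944; lowest of the alternatives 1.41e-05). Under GDC0068 its value of 0.10 was not called (SE 0.0548, edgeR adjusted p = 0.34), nor with the block (edgeR adjusted p = 0.078). FOXO3B on chromosome 17 is a near copy of FOXO3, so reads of the 2 can be mixed. It gave 31.4 ± 0.75 CPM in DMSO, 33.1 ± 2.7 CPM with GDC0068 and 33.5 ± 0.87 CPM with Degrader (SD, n = 2 each), with no call in any contrast.

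The genes of the other FOXO factors could be set beside it. FOXO1 (chromosome 13) went from 30.1 ± 1.1 CPM in DMSO to 34.7 ± 0.49 CPM with GDC0068 and 36.2 ± 1.5 CPM with Degrader (SD, n = 2). It rose under Degrader by 0.26 (SE 0.0692, edgeR adjusted p = 0.0256), a call lost without any 1 of the 4 libraries compared (0.088 to 0.154; lowest of the alternatives 0.00182), and its 0.20 under GDC0068 was not called without the block (edgeR adjusted p = 0.134) and was with it (0.0242). FOXO4 (chromosome X) was transcribed at a low level, 2.74 ± 0.13 CPM in DMSO, 4.13 ± 0.44 CPM with GDC0068 and 5.01 ± 0.68 CPM with Degrader. Its change of 0.87 under Degrader (SE 0.175, edgeR adjusted p = 0.00716) was larger in the fit than those of FOXO1 and FOXO3, a difference between genes that was not tested. The FOXO4 call was lost without DMSO replicate 1 or Degrader replicate 2 (edgeR adjusted p of 0.0696 and 0.0827; lowest of the alternatives 0.000168). Under GDC0068 it was 0.60 (SE 0.18, edgeR adjusted p = 0.0914, and 0.0164 with the block).

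How strongly the 10 genes were transcribed differed more between genes than between arms. Divided by interval length, DMSO levels ran from 0.611 ± 0.017 CPM per kb for HBP1 through FOXO3 (0.741 ± 0.027), PIK3IP1 (0.816 ± 0.014), RBL2 (0.96 ± 0.017), KLHL24 (1.03 ± 0.015), FBXO32 (2.27 ± 0.072), CCNG2 (3.77 ± 0.89), BCL6 (6.91 ± 0.71) and BTG1 (19.7 ± 0.63) to CITED2 (31.5 ± 1; SD, n = 2 throughout). Neighbours in this order did not overlap in their libraries. The 2 highest, CITED2 and BTG1, are the 2 shortest intervals (2.84 and 5.57 kb), and FOXO3 is the longest (124 kb). The part played by reads near the start site was not tested, either in these levels or in the fold changes. Under Degrader, HBP1 was no longer the lowest: at 1.45 ± 0.13 CPM per kb it overlapped PIK3IP1 (1.39 ± 0.094) and lay above RBL2 (1.21 ± 0.015) and FOXO3 (0.882 ± 0.05).

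**Figure D2:**
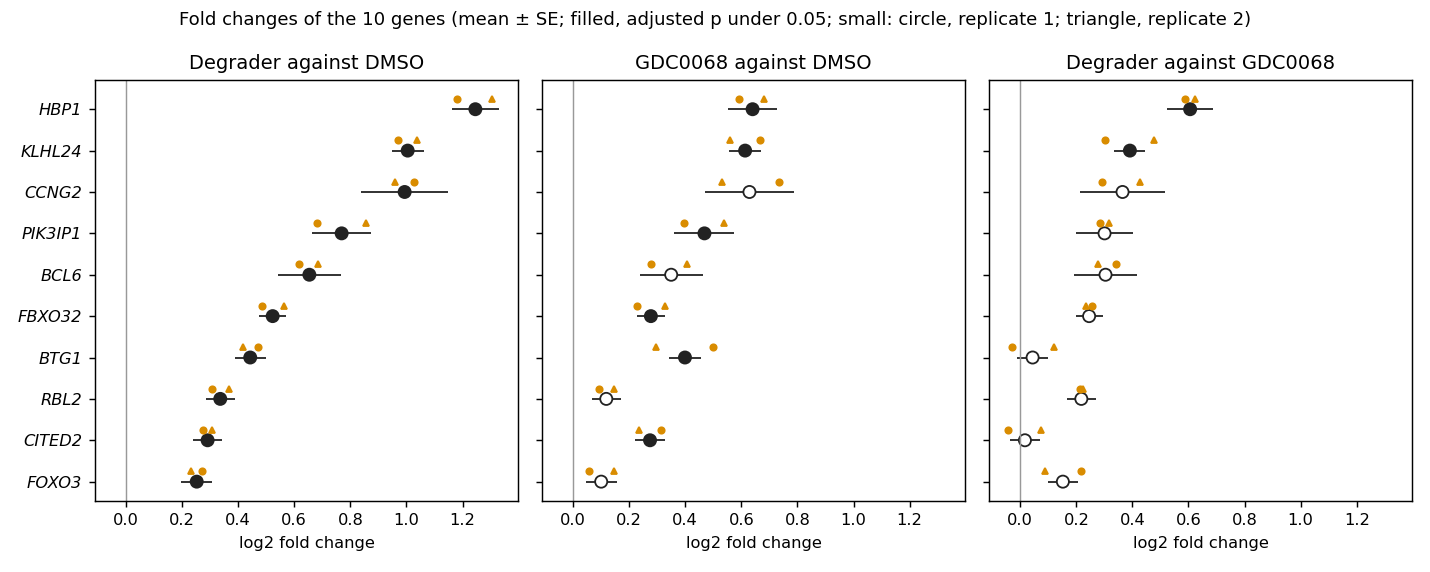
Log2 fold changes (x axis) of the 10 genes in the 3 contrasts; large points are fitted values with their standard error, filled where the edgeR adjusted p is under 0.05, and small orange circles and triangles are the log2 ratios within replicates 1 and 2. All 10 points are filled for Degrader against DMSO, 6 for GDC0068 against DMSO and 2, HBP1 and KLHL24, for Degrader against GDC0068.

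Degrader was set directly against GDC0068, at the unequal doses given above. At these doses and this time, an effect of removing AKT cannot be told apart from how far each drug lowered signalling. HBP1 was higher under Degrader by 0.61 on the log2 scale (SE 0.0816, edgeR adjusted p = 0.0134) and KLHL24 by 0.39 (SE 0.0552, edgeR adjusted p = 0.0185). These 2 of the 10 were called, where 0.116% of all genes were called higher. With a library left out, the log2 value of HBP1 ran from 0.51 to 0.70. Neither call held under every such omission. That of HBP1 was lost without GDC0068 replicate 1 or Degrader replicate 2 (0.54 and 0.51, edgeR adjusted p of 0.147 and 0.146; lowest of the alternatives 3.04e-07). That of KLHL24 was lost without any 1 of the 4 drug libraries, with values of 0.34 to 0.44 and edgeR adjusted p-values from 0.0555 to 0.164, and 1.38e-06 with the block.

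The other 8 genes were not called in the direct contrast. FBXO32 was higher under Degrader by 0.25 (SE 0.0484, edgeR adjusted p = 0.067), CCNG2 by 0.36 (SE 0.151, edgeR adjusted p = 0.306) and BCL6 by 0.30 (SE 0.111, edgeR adjusted p = 0.254). The values of PIK3IP1, RBL2 and FOXO3 were 0.30, 0.22 and 0.15 (edgeR adjusted p of 0.224, 0.105 and 0.249). With the replicate number as a block, these 6 joined HBP1 and KLHL24, so that 8 of 10 were called, beside 5.03% of all genes called higher. The edgeR adjusted p-values of the 6 were then 2.52e-06 for BCL6 to 0.0417 for PIK3IP1. FBXO32 was also called with robust estimation (edgeR adjusted p = 0.0412, with 9.75e-05 to 0.422 over the 14 alternatives). In both replicates these 8 genes were higher under Degrader than under GDC0068, and for 7 of them (not BCL6) both Degrader libraries stood above both GDC0068 libraries, as for 22.1% of all genes.

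BTG1 and CITED2 were the 2 exceptions under either fit. Their log2 differences between the drugs were 0.044 for BTG1 (95% interval -0.077 to 0.165, edgeR adjusted p = 0.759) and 0.017 for CITED2 (-0.098 to 0.131, edgeR adjusted p = 0.917). In replicate 1 both were slightly lower under Degrader (-0.031 and -0.042), and in replicate 2 both were slightly higher (0.121 and 0.073). BTG1 was 1.36-fold above DMSO under Degrader and 1.32-fold under GDC0068, and CITED2 was 1.22-fold and 1.21-fold above. The intervals allow a difference of up to 1.12-fold for BTG1 and 1.1-fold for CITED2 in favour of Degrader. Of the 10 genes, 7 had all 6 libraries in the order DMSO, GDC0068, Degrader, against 6.61% of all genes; BTG1, CITED2 and BCL6 did not.

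**Figure D3:**
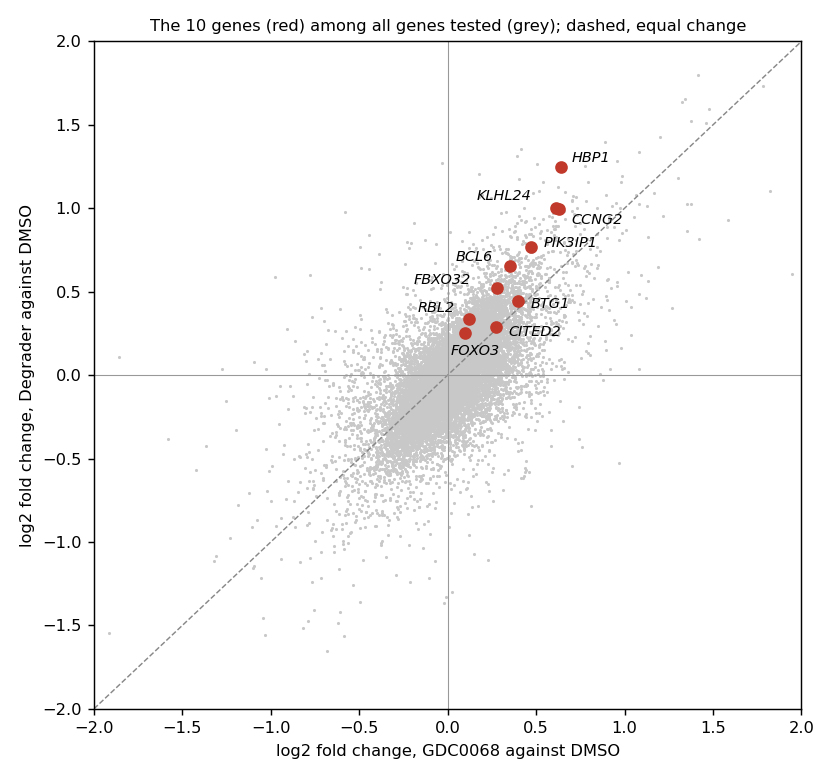
Log2 fold change against DMSO under GDC0068 (x axis) and Degrader (y axis) for the 10 genes (red) and 19900 genes tested (grey; 2 lie outside the axes), both axes using the same DMSO libraries and the dashed line marking equal change. HBP1 lies farthest above the line (0.64 and 1.25), and BTG1 (0.40 and 0.44) and CITED2 (0.27 and 0.29) lie close to it.

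Genes near the 10 in function were counted from 2 further lists. Both lists were drawn up with earlier results of these data known, so nothing is read from their shares or medians. Of 32 other genes known as FOXO targets, 27 were matched and tested. Under Degrader 15 rose, 2 fell and 10 did not pass the test, beside 7.39% and 7.88% of all genes; the median log2 fold change was 0.30. With the block 17 rose and 4 fell, beside 15.1% and 15.7% of all genes; CDKN1A and CCND1, named after their values were seen, were the 2 further genes that fell. The 4 with the smallest adjusted p were IRS2, an adaptor of insulin receptors (1.40, SE 0.1, edgeR adjusted p = 3.59e-05), TNFSF10, which encodes the death ligand TRAIL (0.82, SE 0.0839, edgeR adjusted p = 0.00023), INSR, the insulin receptor (0.54, SE 0.0614, edgeR adjusted p = 0.000397), and PINK1, a kinase of mitochondrial quality control (0.79, SE 0.0915, edgeR adjusted p = 0.000433). The 2 that fell were EIF4EBP1, which encodes a translation repressor (-0.35, edgeR adjusted p = 0.00347), and GADD45A, a DNA damage gene (-0.35, edgeR adjusted p = 0.0357). The GADD45A call was lost without any 1 of the 4 libraries compared (edgeR adjusted p of 0.0754 to 0.204; lowest of the alternatives 0.00568). GADD45A stood at 14.9 and 14.0 CPM in DMSO and 11.4 and 11.4 CPM with Degrader.

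Under GDC0068, 5 of the 27 rose and 1, EIF4EBP1, fell (-0.27, edgeR adjusted p = 0.0339), with a median of 0.19, beside 1.7% and 1.88% of all genes. The block raised these counts to 13 and 1, beside 8.87% and 8.91% of all genes. The 4 genes that led under Degrader also rose here: IRS2 by 0.89 (edgeR adjusted p = 0.0024), PINK1 by 0.56 (edgeR adjusted p = 0.0113), TNFSF10 by 0.39 (edgeR adjusted p = 0.0337) and INSR by 0.29 (edgeR adjusted p = 0.0315). Of these 4, IRS2 kept its GDC0068 call under all 14 alternatives; the others lost it without either DMSO library or without GDC0068 replicate 2, and TNFSF10 also without GDC0068 replicate 1. The fifth was ATG14, an autophagy gene named after its value was seen (0.28, edgeR adjusted p = 0.0406). Without DMSO replicate 1 or DMSO replicate 2 the number of the 27 called was 1, and without GDC0068 replicate 2 it was 2. Between the drugs edgeR called 0 of the 27, with 12 at an unadjusted p under 0.05; DESeq2 called 3, and edgeR with the block called 9 higher and 1 lower, beside 5.03% and 5.35% of all genes.

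The second list held 15 paralogs of the 10 genes, of which 11 were matched and tested. Under Degrader 5 rose (FBXO25, FOXO4, BTG2, FOXO1 and RB1), 0 fell and 6 did not pass the test, with a median of 0.13, beside 7.39% and 7.88% of all genes. DESeq2 called 3, and the block gave 5 higher and 1 lower (FOXO6, named after its value was seen), beside 15.1% and 15.7%. FBXO25, the F-box gene closest to FBXO32, went from 21.6 ± 0.56 CPM in DMSO to 28.5 ± 0.52 CPM with GDC0068 and 30.8 ± 1.7 CPM with Degrader (SD, n = 2; 0.51, SE 0.0802, edgeR adjusted p = 0.00199). BTG2, the relative of BTG1, rose by 0.34 under Degrader (edgeR adjusted p = 0.0212), compared with 0.38 under GDC0068 (edgeR adjusted p = 0.0375). The 2 paralogs called under GDC0068 were BTG2 and FBXO25 (0.40, edgeR adjusted p = 0.0253), beside 1.7% of all genes called higher, and each single-library omission left 0 or 1. The block gave 5 higher and 1 lower, beside 8.87% and 8.91%.

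The pocket proteins differed in value. RB1 rose by 0.19 under Degrader (SE 0.0515, edgeR adjusted p = 0.03), from 93.5 ± 3.6 CPM to 107 ± 1.5 CPM (SD, n = 2), beside the 0.34 of RBL2. The RB1 call was lost without DMSO replicate 1 or either Degrader library (edgeR adjusted p of 0.0899 to 0.236; lowest of the alternatives 0.000299). RBL1, which encodes p107, gave 165 ± 5 CPM in DMSO and 156 ± 4.9 CPM with Degrader, with no call (-0.08, edgeR adjusted p = 0.374). Under GDC0068 RBL1 stood at 146 ± 9.4 CPM (-0.18, edgeR adjusted p = 0.102), which was called lower with the block (edgeR adjusted p = 0.000514). CCNG1, the paralog of CCNG2, was not called under Degrader (0.13, edgeR adjusted p = 0.429) or GDC0068 (0.09, edgeR adjusted p = 0.657). The counts without Degrader replicate 2 or DMSO replicate 1 were 1 of 11 paralogs under Degrader, and 2 without Degrader replicate 1. Between the drugs edgeR called 0 of the 11, with 1 at an unadjusted p under 0.05; DESeq2 also called 0, and the block gave 1.

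**Figure D4:**
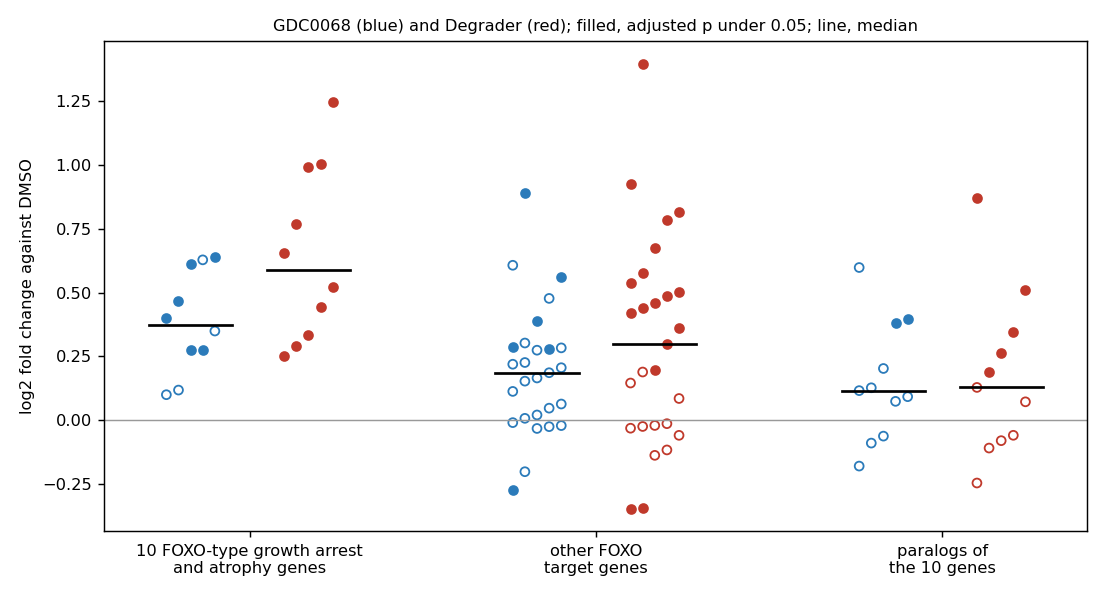
Log2 fold change against DMSO (y axis) of the 10 genes, of 27 other FOXO target genes and of 11 paralogs, under GDC0068 (blue) and Degrader (red); each point is a gene, filled where the edgeR adjusted p is under 0.05, and lines are medians. Medians under Degrader were 0.59, 0.30 and 0.13. The 10 genes and both other lists were chosen with earlier results known, so their places are no finding.

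The mean profile of the 10 genes over the 6 libraries was compared with every other gene of at least 10 CPM (13887 genes). The 5 most alike by Pearson's r over 6 libraries were WASHC2C (0.999), ARHGEF6 (0.998), AC008014.1 (0.998), HDAC5 (0.998) and C11orf98 (0.997). The libraries share their arms, and with 6 points and 13887 genes such values are a description only. WASHC2C is a subunit of the WASH complex on endosomes, and HDAC5 is a histone deacetylase. The profile itself was lowest in DMSO and highest with Degrader, so a rise under both drugs was built into the choice of these 5. Their calls are therefore no separate finding. All 5 were called higher by both drugs, ARHGEF6 for example by 0.40 under GDC0068 (edgeR adjusted p = 0.0392) and 0.68 under Degrader (edgeR adjusted p = 0.00083). Under Degrader the 5 calls held in all 14 alternatives. Under GDC0068 all 5 were lost without DMSO replicate 1 (edgeR adjusted p of 0.12 to 0.249) and without GDC0068 replicate 2 (0.0896 to 0.175), those of WASHC2C, ARHGEF6 and HDAC5 also without the other DMSO or GDC0068 library, and that of C11orf98 also without DMSO replicate 2. All 5 also had a Spearman rho of 1, shared by 374 genes.

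Some intervals overlap others, and whether counting used strand is not given in the sources used here. BTG1 shares 2466 bases with LINC01619 on its own strand, which rose under Degrader by 0.55 (edgeR adjusted p = 0.000538), and with GDC0068 by 0.33 (edgeR adjusted p = 0.0266). It also overlaps AC025164.2 on the opposite strand over 933 bases (0.30 and 0.37, edgeR adjusted p of 0.0588 and 0.0558), which was called in both contrasts with the block (0.0153 and 0.00501). BCL6 overlaps AC072022.2 on the opposite strand at its start over 1063 bases, and that transcript rose by 0.55 under Degrader (edgeR adjusted p = 0.00199) as well as by 0.38 under GDC0068 (edgeR adjusted p = 0.0397). The GDC0068 calls of LINC01619 and AC072022.2 were both lost without DMSO replicate 1 or either GDC0068 library. The part of these shared reads in the values of BTG1 and BCL6 was not tested. RBL2 overlaps 4 intervals, AKTIP, AC007342.1, AC007342.6 and AC007342.7, none of which was called in any contrast by edgeR, with or without the block; the smallest of the adjusted p-values in the 2 contrasts with DMSO without the block was 0.755. HBP1, KLHL24, CCNG2, FBXO32, CITED2, PIK3IP1 and FOXO3 overlapped no other interval of the table.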

How the data were processed

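The authors deposited raw counts per gene interval, whole numbers with 1 column per library; columns were matched to samples by the description in the labels. Per the submitters' processing notes the tools include cutadapt 1.14, Bowtie 1.2.2, SAMtools 1.3.1, HISAT2 2.2.1 and limma, and the builds dm3, hg38 and GRCh38, with no role given. A normalisation to fly RNA was not used here, so changes are relative to the bulk of genes.

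Counts were analysed with edgeR 4.0.16 in R 4.3.3. filterByExpr (minimum count 10, total 15) kept 19902 of 20333 genes. Library sizes were scaled by TMM, and all 6 libraries entered one quasi-likelihood fit with a term per arm (3 residual degrees of freedom). Calls use a Benjamini-Hochberg adjusted p under 0.05 over all genes tested. SE is the log2 fold change divided by the square root of F. On simulated data for Degrader against DMSO (19864 genes), 85 of 100 changes of 0.5 and 100 of 100 changes of 1 on the log2 scale were recovered, with 7 false calls among the unchanged genes. The simulated counts had no replicate effect and a spread set by expression level alone. Changed genes were drawn from those expected above 100 counts. These rates were therefore not shown to hold for the real libraries.

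Replicate numbers were taken to pair libraries: the series describes 2 independent experiments, and same-numbered libraries deviated together from their arm means (r of 0.177, 0.22 and 0.204 across genes). The fit with the replicate number as a block was an alternative, beside DESeq2 1.42.0, other scalings, filters, robust estimation, fits of 4 libraries and leaving out each library. With 2 libraries an arm, no permutation test between 2 arms can pass 0.05.

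The members and lists were chosen with earlier results of these data known. Named genes were all members, FOXO1, FOXO4, RB1, RBL1, CCNG1, FBXO25, up to 4 per list and direction called under Degrader with the smallest adjusted p, the 5 most similar genes and those overlapping a member. Promoters are from RefSeq (GRCh38.p14).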

Additional observations from a re-analysis of the deposited data

How the results depend on the processing

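Of the calls of the 10 genes under Degrader, all 10 were kept with DESeq2, relative log expression or upper-quartile factors, no filter, a filter of 1 CPM, the 4 libraries compared and the replicate block; robust estimation left 8, and leaving out a library left 9 to 10. Under GDC0068 the 6 calls became 8 with the replicate block and 1 to 7 with a library left out. Between the drugs 2 became 8 with the replicate block and 0 to 2 with a library left out. All genes called numbered 3039 under Degrader (6114 with the replicate block, 931 to 3217 with a library left out), 712 under GDC0068 (3540; 37 to 546) and 53 between the drugs (2065; 5 to 63), the last also 136 with DESeq2, 116 with robust estimation and 23 in the fit of the 4 libraries compared. Other FOXO targets called were 6 under GDC0068 (14 with the replicate block, 1 to 5 with a library left out) and 0 between the drugs (10 with the replicate block, 3 with DESeq2, 2 with robust estimation, 0 to 1 with a library left out). Paralogs called were 5 under Degrader (3 with DESeq2, 1 to 5 with a library left out), 2 under GDC0068 (6 with the replicate block, 1 with the 4 libraries compared, 0 to 1 with a library left out) and 0 between the drugs (1 with the replicate block). The replicate block changed no call of a member other than those given with their values. GTAAACA was in 3 member promoters, GTAAACAA in 1 and CAAAACAA in 0. The cause of these changes was not tested.

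Signs turned only for uncalled values. With a library left out, values between the drugs ran from -0.017 to 0.12 for BTG1, -0.037 to 0.071 for CITED2, -0.10 to 0.17 for CCNG1, -0.071 to 0.051 for AKTIP, -0.29 to 0.23 for AC007342.1 and -0.19 to 0.063 for AC007342.7. Under Degrader they ran from -0.017 to 0.26 for CCNG1, -0.054 to 0.038 for AKTIP, -0.31 to 0.24 for AC007342.1, -0.16 to 0.20 for AC007342.6 and -0.28 to 0.12 for AC007342.7. Under GDC0068 they ran from -0.036 to 0.22 for CCNG1, -0.10 to 0.025 for GADD45A, -0.053 to 0.068 for AKTIP, -0.31 to 0.32 for AC007342.1, -0.26 to 0.10 for AC007342.6 and -0.21 to 0.18 for AC007342.7. AKTIP was 0.00045 under Degrader with upper-quartile factors, and AC007342.1 under GDC0068 was -0.0027 with DESeq2, -0.0026 with relative log expression factors, -0.0025 with no filter and -0.0033 in the fit of the 4 libraries compared.

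No spike-in scaling was applied, so a change common to all genes was not measured. An arm reduced to 1 library was assumed to vary like the others. P-values of the main fit rest on the spread between the 2 libraries of each arm, which edgeR draws towards the spread seen over all genes. With the replicate number as a block, a shift shared by the libraries of 1 number is taken out of that spread. Where PIK3IP1 holds 238 to 461 counts, counting error is larger than for the other members.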
